A study of Mus musculus with 6 samples.

Results

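Solute carriers are membrane proteins that move sugars, amino acids, metals, bile acids, nucleotides and ions across cell and organelle membranes without spending ATP themselves. Most are facilitators, exchangers or cotransporters driven by the gradients of sodium, protons or the substrate. In liver they take bile acids, drugs, amino acids and fatty acids out of portal blood and move glucose, zinc, iron and copper in and out of hepatocytes. Genes were taken by description: every array target described as a solute carrier was kept unless it belonged to family 25, the mitochondrial carriers. For each gene the target with the highest mean log2 intensity over all 6 arrays was used, and the gene was kept where that mean was at least 7. The search matched 419 target rows of 282 genes, and 124 of these genes passed the level threshold, among 37539 features (genes, or target rows without a gene name) in all.

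The 124 genes were 117 named carriers of 39 SLC families, 4 partner proteins that bind or regulate a carrier, and 3 transcripts named only by their likeness to a carrier. Several of the 117 are known to sit in membranes other than the plasma membrane, such as Slc37a4 in the endoplasmic reticulum, the SLC35 nucleotide sugar carriers of the Golgi and Slc8b1 of mitochondria, so the set is wider than plasma membrane and vesicles. Slc2a1, Slc10a1 and Slc39a14, genes that stand for the set, were all among the 124. The level threshold used the mean over both groups and not their difference, but 10 of the 124 reached it with 1 group mean below 7, and of these Slc10a6 and Slc37a1 are described below as lower. Just inside the threshold were Slc7a5 and Slc37a2, both at a mean log2 of 7.017, and just outside were Slc44a4 at 6.92 and Slc18a1 at 6.916. The other 158 matched genes lay under it.

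The data were liver RNA of 6 wild-type male C57 BL/6 mice aged 9-10 weeks, 1 mouse per array. In the LPS group 3 mice had 0.01 µg of lipopolysaccharide (LPS), a bacterial cell wall component. In the LPS/GalN group 3 mice had the same amount of LPS together with 20 mg of D-galactosamine (GalN), an amino sugar that depletes uridine nucleotides in hepatocytes and makes mice sensitive to LPS. Livers of both groups were taken after 2.5 h, and every mouse received LPS, so the comparison shows what GalN added to LPS and has no untreated or GalN-only arm here. The values are RMA intensities (robust multi-array average, a background-corrected and normalized summary of the probes of a target) and are given on the log2 scale in arbitrary units, where a difference of 1 is a doubling.

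Hepatocyte markers were bright on every array, with mean log2 levels of 14.57 to 15.02 over 10 of 10 genes. Some arrays carried markers of other tissues. Intestinal epithelium markers (9 of 10 measured) had mean log2 levels of 10.97 and 11.02 on LPS replicates 1 and 2, against 6.49 on LPS replicate 3 and 6.26 to 6.39 on the LPS/GalN arrays, and their summed intensity ran from 2220 to 28700 in LPS and from 1780 to 2090 in LPS/GalN. Thymus and T cell markers (7 of 10 measured) had mean log2 levels of 9.73 and 9.17 on LPS/GalN replicates 2 and 3, against 5.64 on LPS/GalN replicate 1 and 5.83 to 6.09 on the LPS arrays; their summed intensity ran from 439 to 585 in LPS and from 375 to 8880 in LPS/GalN. Sinusoidal endothelium markers had 3 of 7 measured genes higher in LPS/GalN past the threshold, neutrophil markers 2 of 7 lower and cholangiocyte markers 1 of 4 lower. The random-probe background of the arrays was 31.3 to 34.7 on the linear scale, no marker of either list was at 0, and every one of the 124 genes was above background on at least 1 array of each group. Fewer cells of a type and less RNA per cell cannot be told apart in whole liver RNA.

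In LPS/GalN livers 13 of the 124 genes (10.5%) were lower past an adjusted p of 0.05, against 3.03% of all features and 7.33% of the 12930 features with a mean log2 of at least 7. None was higher past that threshold by limma, against 0.602% of all features and 1.08% of those at a mean of at least 7. In either direction 3.63% of all features and 8.41% of those at a mean of at least 7 passed. At an unadjusted p under 0.05 there were 26 lower and 14 higher genes. At that p, 3389 of all 37539 features were lower and 3165 higher. Of the 12930 features at a mean of at least 7, 2042 were lower and 1575 higher. The median log2 difference, LPS/GalN minus LPS, was 0.01 over the 124 genes, 0.05 over all features and 0.12 over features at a mean of at least 7. Every LPS/GalN array was below every LPS array for 27 genes (21.8%, against 11.0% of all features and 18.5% of those at a mean of at least 7). Every LPS/GalN array was above every LPS array for 25 genes (20.2%, against 12.9% and 22.6%). The share of genes without overlap was thus near that of features of like level on both sides.

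**Figure D1:**
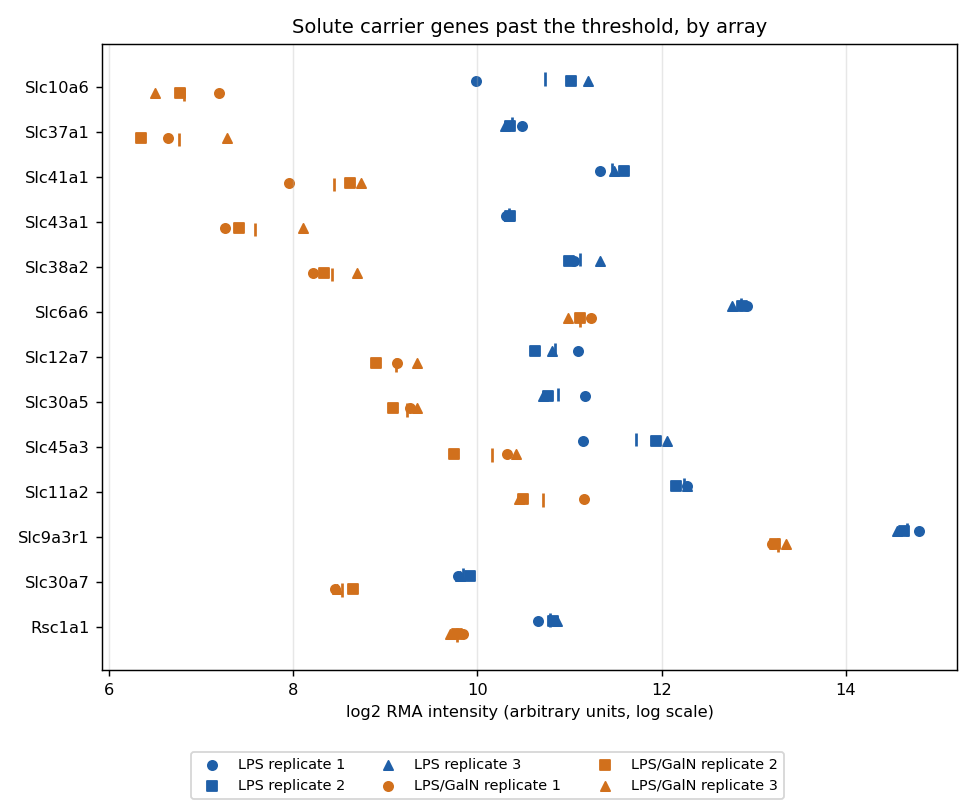
Log2 RMA intensity on each of the 6 arrays for the 13 genes past the threshold, with blue for LPS, orange for LPS/GalN, a marker shape per replicate and a short vertical line at each group mean. For every gene all 3 orange points lie left of all 3 blue points, and the gap is widest for Slc10a6, Slc37a1 and Slc41a1.

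The 13 lower genes fell in different branches of transport. They were 11 carriers of 10 families and 2 partner proteins. Their fold differences ran from 2.02 for Rsc1a1 to 15.1 for Slc10a6. For each of the 13 genes every LPS/GalN array was below every LPS array, so leaving arrays out could not turn the sign. All 13 were therefore below 0 when LPS replicates 1 and 2, which carry the intestinal markers, were left out. They were also below 0 when LPS/GalN replicates 2 and 3, which carry the thymus markers, were left out. The number past the threshold was 0 in the first case, where 0 of all features passed, and 4 (3.23%) in the second, where 248 of all features (0.661%) were lower, with a lone array left in a group each time. When arrays were dropped singly, 8 of the 13 passed in all 6 fits: Slc10a6, Slc37a1, Slc41a1, Slc43a1, Slc38a2, Slc6a6, Slc12a7 and Slc30a5.

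The sequences just before the start sites of the 3 largest decreases past the threshold are shown. Whether these genes move together was not tested. They are RefSeq sequences of build GRCm38.p6, 250 bases ending at the base before the start site, 5′ to 3′ on the strand of the gene. Capitals mark matches, on either strand, to the motifs of factors that act in LPS, interferon and metal responses. Slc10a6 is on chr5:103629404-103629653 (minus strand), Slc37a1 on chr17:31295974-31296223 (plus strand) and Slc41a1 on chr1:131827762-131828011 (plus strand).
Slc10a6: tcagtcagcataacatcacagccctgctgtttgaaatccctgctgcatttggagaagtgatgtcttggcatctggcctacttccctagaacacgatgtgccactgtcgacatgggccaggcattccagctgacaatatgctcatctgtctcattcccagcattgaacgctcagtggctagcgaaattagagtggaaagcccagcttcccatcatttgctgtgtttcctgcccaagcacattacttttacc
Slc37a1: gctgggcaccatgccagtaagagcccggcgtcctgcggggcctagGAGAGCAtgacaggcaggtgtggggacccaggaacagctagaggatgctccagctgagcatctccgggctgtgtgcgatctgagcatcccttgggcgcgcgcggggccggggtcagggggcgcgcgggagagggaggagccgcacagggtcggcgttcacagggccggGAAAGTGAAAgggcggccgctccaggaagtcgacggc
Slc41a1: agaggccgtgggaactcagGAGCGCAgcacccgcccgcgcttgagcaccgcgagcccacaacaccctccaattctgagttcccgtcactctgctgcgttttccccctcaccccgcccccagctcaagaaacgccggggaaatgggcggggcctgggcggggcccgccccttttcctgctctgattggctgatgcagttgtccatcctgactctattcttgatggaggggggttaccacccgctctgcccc

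The motifs searched were the kB motif of NF-kB, the STAT motif TTCNNNGAA, the interferon-stimulated response element (GAAA, NN, GAAA) and the metal response element TGCNCNC; no marked match overlaps another. Slc37a1 held an interferon-stimulated response element, GAAAGTGAAA, starting 37 bases before the start site, and a metal response element match on the opposite strand, GAGAGCA as printed, 205 bases before it. Slc41a1 held a metal response element match 231 bases before its start site, and the Slc10a6 window held no match to these letters. Of all 32841 promoter windows, 2.98% held the interferon element, 44.4% the metal element, 7.25% the kB motif and 7.02% the STAT motif. Windows were found for 93 of the 124 genes and for 11 of the 13 lower ones, and those 11 genes had 13 windows, of which 1 held the interferon element, 7 the metal element and 0 the kB or the STAT motif. A match describes the letters only.

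Among carriers of bile acids and organic ions, 1 of 14 genes fell and the others did not pass the threshold. Lower calls made up 3.03% of all features and 7.33% of those with a mean log2 of at least 7. Slco1b2, a further uptake carrier of hepatocytes, was not matched by description and was not tested. The gene that fell was Slc10a6 (chr5:104034901-104058315, mm9), a sodium-dependent carrier of sulfated steroids. Its log2 level was 9.99, 11.02 and 11.20 on the LPS arrays and 7.20, 6.77 and 6.50 on the LPS/GalN arrays. All LPS/GalN arrays were far below all LPS arrays, and LPS replicate 1 was the lowest of its group. The difference was -3.92 ± 0.36 (SE) on the log2 scale, a 15.1-fold lower level (adjusted p = 0.00135). Without LPS replicates 1 and 2 it was -4.38.

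Slc10a1 (chr12:82054181-82069022, mm9), the sodium-taurocholate cotransporter that takes bile acids from blood into hepatocytes, read 14.47, 14.38 and 14.73 in LPS and 14.60, 14.77 and 14.92 in LPS/GalN. The groups overlapped, and the difference of 0.24 ± 0.22 (SE) did not pass (adjusted p = 0.649). Its family member Slc10a7 read 8.10, 7.95 and 9.02 in LPS and 7.39, 7.33 and 8.20 in LPS/GalN, with overlap. Slc10a2, the bile acid carrier of ileum, differed by -0.47 ± 0.43 (adjusted p = 0.637).

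No organic anion or cation carrier named here passed. Slco1a1, an organic anion transporting polypeptide of the sinusoidal membrane, differed by -0.09 ± 0.22 (adjusted p = 0.881) and Slco2b1, another member, by 0.50 ± 0.23 (adjusted p = 0.307). Slc47a1, which exports organic cations with protons, differed by 0.26 ± 0.22 (adjusted p = 0.600).

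The widest spread within a group in this class was that of Slc22a7, the organic anion carrier 2. It read 8.90, 10.04 and 11.13 on the 3 LPS arrays and 10.73, 9.86 and 10.44 on the LPS/GalN arrays. The groups overlapped, and the difference was 0.32 ± 0.53 (adjusted p = 0.808). Slco2a1, a prostaglandin carrier of endothelium chosen after its values were seen, had all LPS/GalN arrays above all LPS arrays, at 10.65, 10.61 and 10.05 against 9.83, 9.26 and 9.56, with a difference of 0.88 ± 0.27 that did not pass (adjusted p = 0.137). Slco2a1 did pass with trend and robust fitting (adjusted p = 0.015) and with only features at a mean log2 of at least 7 (0.0441). Its other, dim target, at a mean log2 of 5.41, pointed the opposite way, at -1.26 (adjusted p = 0.227), so the direction of the gene depends on the target read. Endothelial markers differed in the direction of the brighter target, with a median difference of 1.11 and 3 of 7 measured genes higher past the threshold; the part they play in that Slco2a1 value was not tested.

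**Figure D2:**
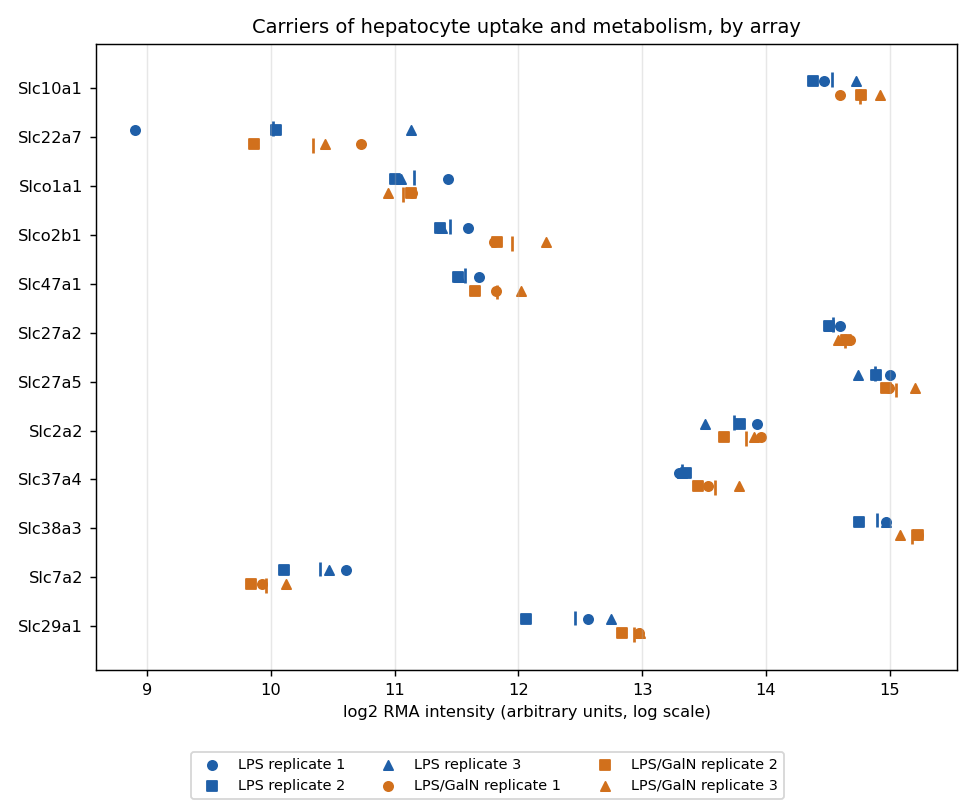
Log2 RMA intensity on each array for 12 carriers of hepatocyte uptake and metabolism, with blue for LPS, orange for LPS/GalN, a marker shape per replicate and a short line at each group mean. The bile acid carrier Slc10a1 has overlapping groups near 14.5 to 14.8, and Slc22a7 has the widest spread, with LPS points from 8.90 to 11.13.

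Of the 17 amino acid carriers 3 fell and none rose past the threshold, with a median difference of -0.43. Of all features 3.03% were called lower, and of those with a mean log2 of at least 7 it was 7.33%. Slc43a1 (chr2:84680580-84703737, mm9), a facilitator of branched-chain and other large neutral amino acids, read 10.31, 10.36 and 10.34 in LPS and 7.26, 7.41 and 8.11 in LPS/GalN. The LPS arrays lay within a narrow band and the LPS/GalN arrays were all lower, replicate 3 the least. The difference was -2.74 ± 0.27 (SE), 6.70-fold lower (adjusted p = 0.00175). A second, dimmer target of the gene differed by -0.44 and did not pass (adjusted p = 0.594).

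Slc38a2 (chr15:96517822-96529999, mm9), a sodium-coupled carrier of small neutral amino acids that cells induce on amino acid shortage, read 11.05, 10.99 and 11.33 in LPS and 8.22, 8.34 and 8.69 in LPS/GalN. No arrays overlapped. The difference was -2.71 ± 0.24, 6.53-fold lower (adjusted p = 0.00106). Its dimmer target, at a mean log2 of 5.74, differed by -0.63 (adjusted p = 0.398). Slc6a6 (chr6:91634135-91705506, mm9), the taurine transporter, read 12.93, 12.87 and 12.77 in LPS and 11.23, 11.11 and 10.98 in LPS/GalN. Both groups were tight and did not overlap, and the difference was -1.75 ± 0.21, 3.36-fold lower (adjusted p = 0.00356). A dimmer target of Slc6a6 differed by -0.54 (adjusted p = 0.397).

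Amino acid carriers of hepatocytes known for other roles did not pass. Slc38a3, the glutamine carrier, had a mean of 14.90 ± 0.13 with LPS alone and 15.18 ± 0.09 with GalN added (± SD, n = 3), a difference of 0.28 ± 0.21; levels this close to the upper end of the scanner range can mask differences. Slc7a2, the inducible cationic amino acid carrier, differed by -0.43 ± 0.23 (adjusted p = 0.395). Slc3a2, the heavy chain shared by several amino acid exchangers, differed by 0.37 ± 0.26 (adjusted p = 0.532), and its light chain Slc7a5 by 0.12 ± 0.32 (adjusted p = 0.888).

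A number of amino acid carriers were brightest on LPS replicates 1 and 2. Slc6a8, the creatine carrier, read 10.54, 10.82 and 9.06 in LPS and 7.72, 8.67 and 7.74 in LPS/GalN. LPS replicate 3 was thus also above every LPS/GalN array. The Slc6a8 difference was -2.10 ± 0.49 (adjusted p = 0.0606). It passed with trend and robust fitting (adjusted p = 0.0482), with only features at a mean log2 of at least 7 (0.0312) and in the deposited value table (0.0337). Slc7a8, a neutral amino acid exchanger of epithelia, read 10.10, 10.20 and 7.15 in LPS and 7.66, 6.62 and 7.54 in LPS/GalN (adjusted p = 0.259). Only LPS replicates 1 and 2 stood above the other arrays for Slc7a8, and without them the difference changed from -1.88 to 0.12. Slc6a8 differed by -1.02 without them.

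Slc1a5, a sodium-dependent neutral amino acid exchanger, stood out on the other side. It read 7.62, 7.69 and 7.71 in LPS and 7.70, 9.56 and 9.06 in LPS/GalN. Only LPS/GalN replicates 2 and 3, the arrays with thymus markers, were high, and the difference of 1.10 ± 0.44 (adjusted p = 0.248) was 0.03 without them. With LPS/GalN replicate 1 left out instead, Slc1a5 passed at 1.64 (adjusted p = 0.0162). Slc44a2, a choline-like carrier, had all LPS/GalN arrays above all LPS arrays, at 8.61, 9.72 and 8.90 against 8.07, 7.72 and 7.73, and its difference was 1.24 ± 0.32 (adjusted p = 0.0870) over all arrays and 0.77 without LPS/GalN replicates 2 and 3. Slc44a2 also passed without LPS/GalN replicate 1 (adjusted p = 0.0498). The part that the thymus markers play in either value was not tested. Slc1a5, Slc44a2, Slc6a8 and Slc7a8 were chosen after their values were seen.

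Metal carriers had 4 of 21 genes lower, all carriers of magnesium, zinc or iron, with none higher and a median difference of -0.17. Lower calls made up 3.03% of all features and 7.33% of features with a mean log2 of at least 7. Amino acid carriers had 3 of 17 lower, and no group was tested against another. Slc41a1 (chr1:133724553-133745440, mm9), a magnesium carrier of the plasma membrane, read 11.33, 11.59 and 11.48 in LPS and 7.96, 8.62 and 8.74 in LPS/GalN. The 3 LPS/GalN arrays were all lower, LPS/GalN replicate 1 the most. The difference was -3.02 ± 0.27, 8.13-fold lower (adjusted p = 0.00113), and its second target also passed, at -1.47.

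Of the zinc and manganese exporters of the SLC30 family, 2 of 6 fell, against 3.03% of all features and 7.33% of those with a mean log2 of at least 7. Slc30a5 (chr13:101572602-101584721, mm9), which loads zinc into the Golgi, read 11.17, 10.77 and 10.71 in LPS and 9.27, 9.08 and 9.35 in LPS/GalN, with no overlap. It differed by -1.65 ± 0.23, 3.14-fold lower (adjusted p = 0.00690). Slc30a7 (chr3:115648860-115710274, mm9), a related carrier of the early secretory pathway, read 9.79, 9.92 and 9.81 in LPS and 8.46, 8.65 and 8.48 in LPS/GalN. The groups were tight and apart, and the difference was -1.31 ± 0.21, 2.48-fold lower (adjusted p = 0.0113), with both of its targets past the threshold. Without LPS replicate 1 or 2 its adjusted p was 0.0518 or 0.0594. The partner of Slc30a5, Slc30a6, differed by -0.40 ± 0.29 (adjusted p = 0.537). The zinc carriers of the same pathway in family SLC39 did not pass: Slc39a7 differed by -0.26 (adjusted p = 0.659) and Slc39a13 by 0.57 (adjusted p = 0.329), all LPS/GalN arrays of the latter being higher. Slc30a6, Slc39a7 and Slc39a13 were chosen after their values were seen.

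Slc11a2 (chr15:100223286-100253414, mm9), the divalent metal transporter that carries iron, read 12.28, 12.16 and 12.28 in LPS and 11.16, 10.50 and 10.45 in LPS/GalN. LPS/GalN replicate 1 was the highest of its group but still under every LPS array. The difference was -1.53 ± 0.26, 2.89-fold lower (adjusted p = 0.0161), and a second target differed by -2.08 and also passed. Dropping any array other than LPS replicate 3 or LPS/GalN replicate 1 ended the call (adjusted p from 0.0617 to 0.0726).

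Slc39a14 (chr14:70713765-70751231, mm9), which imports zinc, manganese and iron and is an acute phase carrier of liver, lay just short of the threshold. It read 8.86, 8.04 and 8.58 in LPS and 7.52, 5.83 and 6.02 in LPS/GalN. The groups did not overlap, but LPS/GalN replicate 1 stood above the other 2 of its group. The difference was -2.04 ± 0.46 (adjusted p = 0.0546). With LPS/GalN replicate 1 left out it was -2.57 and passed (adjusted p = 0.00561), and with LPS/GalN replicates 2 and 3 left out it was -0.98. It also passed, over all 6 arrays, with trend and robust fitting (adjusted p = 0.00472), with only features at a mean log2 of at least 7 (0.0277), in the deposited value table (0.0297) and with arrays centred on their median (0.0463).

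The other metal carriers of liver named here did not pass. Slc39a4, a zinc importer, averaged 12.17 ± 0.21 over the LPS mice and 12.67 ± 0.06 over the LPS/GalN mice (± SD, n = 3), with a difference of 0.50 ± 0.22 (adjusted p = 0.294); with trend and robust fitting it passed (adjusted p = 0.0314). Slc39a8, a zinc and manganese importer, differed by 0.39 ± 0.22 (adjusted p = 0.415). For both, every LPS/GalN array was above every LPS array. Slc30a1, the zinc exporter of the plasma membrane, differed by -0.17 ± 0.36 (adjusted p = 0.859). Slc30a10, a manganese exporter, differed by 0.35 ± 0.26 (adjusted p = 0.541), and Slc40a1, the iron exporter ferroportin, by 0.22 ± 0.27 (adjusted p = 0.741). Slc11a1, a metal carrier of phagocytes chosen after its values were seen, read 7.26, 7.56 and 7.45 in LPS and 8.21, 8.0 and 8.41 in LPS/GalN, and its difference of 0.78 ± 0.23 did not pass (adjusted p = 0.120), though it did in the deposited value table (0.0331) and with only features at a mean log2 of at least 7 (0.0245). Kupffer cell markers had a median difference of 0.59, with 0 of 7 measured genes past the threshold; their part in the Slc11a1 value was not tested.

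**Figure D3:**
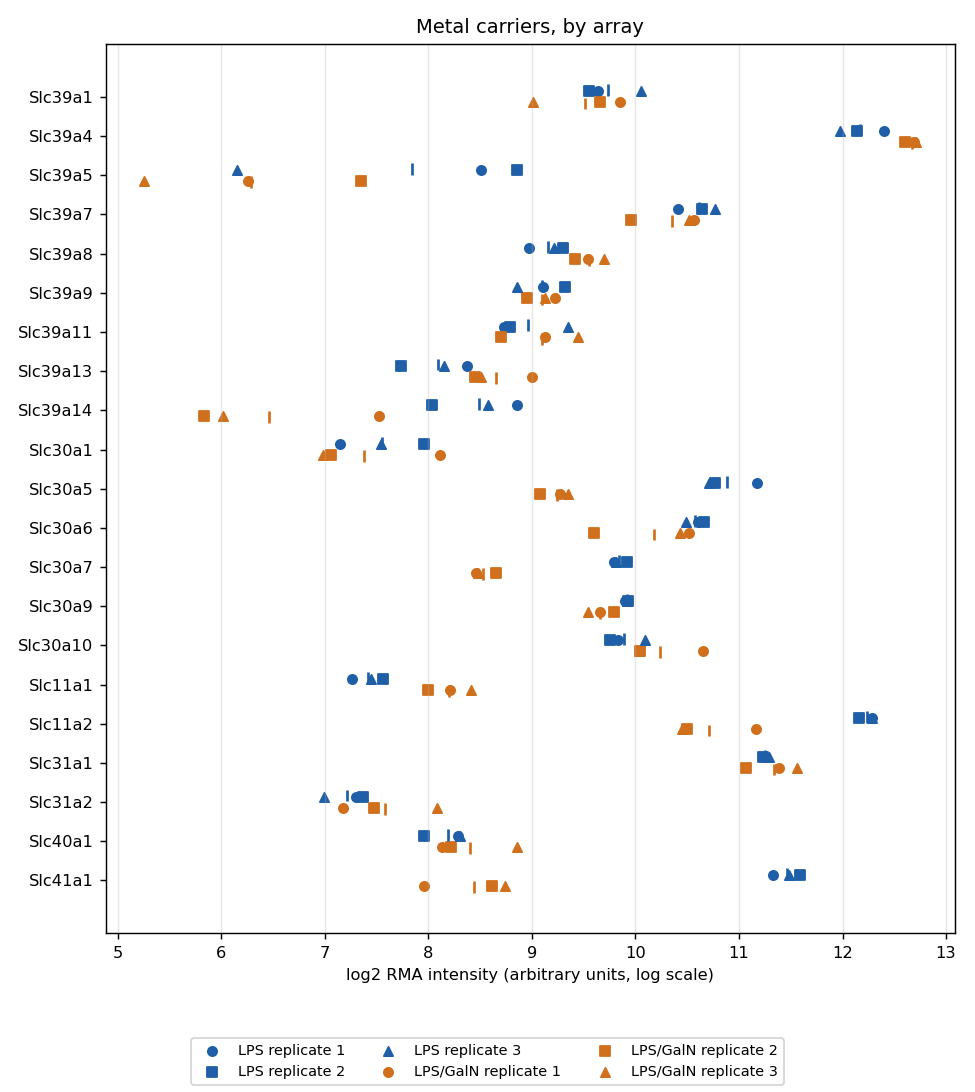
Log2 RMA intensity on each array for the 21 metal carriers, ordered by family, with blue for LPS, orange for LPS/GalN, a marker shape per replicate and a short line at each group mean. Slc41a1, Slc11a2, Slc30a5 and Slc30a7 have all orange points left of all blue points, and the LPS/GalN points of Slc39a14 run from 5.83 to 7.52.

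Among carriers of phosphate, sulfate and carboxylates 1 of 21 fell and none rose. The share called lower was 3.03% over all features and 7.33% over those with a mean log2 of at least 7. Slc37a1 (chr17:31432427-31487643, mm9), an exchanger of sugar phosphates and phosphate in the endoplasmic reticulum, read 10.49, 10.36 and 10.30 in LPS and 6.64, 6.35 and 7.28 in LPS/GalN. The LPS arrays lay close together and the LPS/GalN arrays were all far lower. The difference was -3.62 ± 0.28, 12.3-fold lower (adjusted p = 0.000636). Its relative Slc37a4, the glucose 6-phosphate carrier needed for glucose release by hepatocytes, had a mean of 13.32 ± 0.02 with LPS alone and 13.59 ± 0.17 with GalN added (± SD, n = 3), a difference of 0.27 ± 0.21 (adjusted p = 0.580).

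Slc13a2, a citrate and dicarboxylate cotransporter of intestine and kidney, chosen after its values were seen, showed the largest spread within LPS among the values given. It read 10.74, 10.59 and 5.36 in LPS and 5.32, 6.29 and 6.41 in LPS/GalN. LPS replicates 1 and 2 alone were high, as were the intestinal markers, and the difference changed from -2.89 to 0.65 without them. Slc16a1, the monocarboxylate carrier 1, differed by -0.09 ± 0.25 (adjusted p = 0.900), Slc16a10, an aromatic amino acid carrier, by -0.55 ± 0.27 (adjusted p = 0.346), and Slc20a1, a phosphate importer, by -0.29 ± 0.23 (adjusted p = 0.587), with a range from -0.29 to 0.28 over its 4 targets. Slc17a5, the lysosomal sialic acid carrier, had all LPS/GalN arrays above all LPS arrays, at a difference of 0.66 ± 0.24 (adjusted p = 0.203).

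Of the 12 carriers of ions and pH, 1 fell and none rose, where 3.03% of all features and 7.33% of those with a mean log2 of at least 7 fell. Slc12a7 (chr13:73901144-73951184, mm9), a potassium-chloride cotransporter, read 11.09, 10.63 and 10.81 in LPS and 9.13, 8.90 and 9.34 in LPS/GalN, with no overlap. It differed by -1.72 ± 0.24, 3.30-fold lower (adjusted p = 0.00663). Of its 4 targets, this was the only one past the threshold, and the dimmer targets differed by -1.47, -0.93 and -0.59. Slc4a4, the sodium bicarbonate cotransporter, read 12.64, 12.51 and 12.93 in LPS and 12.26, 12.28 and 12.05 in LPS/GalN, a difference of -0.49 ± 0.22 without overlap (adjusted p = 0.306). With trend and robust fitting Slc4a4 passed as lower (adjusted p = 0.0373).

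The families grouped as sugar carriers (SLC2, SLC5 and SLC45) had 1 of 6 genes lower, and the main glucose carriers did not pass. Groups follow the SLC family, not the substrate of each gene. Lower calls made up 3.03% of all features and 7.33% of those with a mean log2 of at least 7. Slc45a3 (chr1:133867185-133879541, mm9), a proton-coupled sugar carrier, read 11.15, 11.94 and 12.06 in LPS and 10.32, 9.75 and 10.42 in LPS/GalN. The groups did not overlap, and LPS replicate 1 was the lowest of its group. The difference was -1.55 ± 0.32, 2.93-fold lower (adjusted p = 0.0384), and leaving out any array but LPS replicate 1 ended the call (adjusted p from 0.0569 to 0.139).

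Slc2a1 (chr4:118781380-118809934, mm9), the widely expressed glucose carrier, read 7.57, 8.28 and 8.66 in LPS and 8.69, 7.70 and 7.60 in LPS/GalN. The groups overlapped fully, with a difference of -0.17 ± 0.39 (adjusted p = 0.865). Slc2a2, the low-affinity glucose carrier of hepatocytes, averaged 13.74 ± 0.21 over the LPS mice and 13.84 ± 0.16 over the LPS/GalN mice (± SD, n = 3), a difference of 0.10 ± 0.23 (adjusted p = 0.867).

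Of the partner proteins, 2 of 4 fell, a small group beside 3.03% of all features and 7.33% of those with a mean log2 of at least 7. Slc9a3r1 (chr11:115024669-115042488, mm9), a scaffold that anchors sodium-proton exchangers and other carriers at the apical membrane, read 14.79, 14.63 and 14.56 in LPS and 13.20, 13.23 and 13.35 in LPS/GalN. No arrays overlapped, and the difference was -1.40 ± 0.21, 2.63-fold lower (adjusted p = 0.00908). Without LPS replicate 1 its adjusted p rounded to 0.05 and the call was lost. Rsc1a1 (chr4:141239479-141241676, mm9), a regulator of the sodium-glucose cotransporter, read 10.66, 10.82 and 10.87 in LPS and 9.85, 9.78 and 9.70 in LPS/GalN, with tight groups apart. Its difference was -1.01 ± 0.21, 2.02-fold lower (adjusted p = 0.0375), and leaving out any of the 6 arrays ended the call (adjusted p from 0.0622 to 0.132). Rsc1a1 lies within Ddi2 in RefSeq, so signal of these overlapping genes cannot be told apart.

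Slc9a3r2, a second scaffold of that kind chosen after its values were seen, pointed the other way. It read 7.67, 8.50 and 8.10 in LPS and 9.54, 9.16 and 9.07 in LPS/GalN, with all LPS/GalN arrays higher, and a difference of 1.16 ± 0.28 that did not pass (adjusted p = 0.0692).

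Carriers of fatty acids, nucleosides, nucleotide sugars, peptides and vitamins, and the choline-like family, 26 genes in 5 groups, had 0 genes past the threshold by limma. In either direction 3.63% of all features passed, and 8.41% of those with a mean log2 of at least 7. At an unadjusted p under 0.05, 3 of the 26 were lower and 4 higher. Slc27a2 and Slc27a5, which activate and take up long-chain fatty acids and bile acids in liver, differed by 0.10 ± 0.20 (adjusted p = 0.854) and 0.17 ± 0.21 (adjusted p = 0.737). Slc29a1, an equilibrative nucleoside carrier, had a mean of 12.46 ± 0.35 with LPS alone and 12.93 ± 0.08 with GalN added (± SD, n = 3), a difference of 0.47 ± 0.25 without overlap (adjusted p = 0.380).

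The SLC35 family, which brings nucleotide sugars into the Golgi, had 12 genes, a median difference of 0.08 and a range from -0.82 to 0.95. Of the 12, 4 were below 0 and 8 above. Slc35a4 and Slc35f5, chosen after their values were seen, had all LPS/GalN arrays below all LPS arrays. They differed by -0.82 ± 0.24 (adjusted p = 0.126) and -0.80 ± 0.22 (adjusted p = 0.0992). With trend and robust fitting both passed as lower (adjusted p = 0.0203 and 0.00475). Slc35a2, the UDP-galactose carrier, read 7.67, 8.08 and 8.19 in LPS and 9.00, 8.37 and 8.77 in LPS/GalN. All LPS/GalN arrays were higher, and the difference of 0.73 ± 0.26 did not pass (adjusted p = 0.199). Slc35a1, the CMP-sialic acid carrier, differed by 0.45 ± 0.29 (adjusted p = 0.479), Slc35d1, a carrier of UDP-glucuronic acid and UDP-N-acetylgalactosamine, by 0.22 ± 0.31 (adjusted p = 0.771), and Slc35b1, a carrier of the endoplasmic reticulum, by 0.06 ± 0.24 (adjusted p = 0.932). The direction of Slc35d1 turned with the choice of target: its other targets, at mean log2 levels of 5.42 and 5.56, both differed by -0.86 (adjusted p = 0.0948 and 0.214), and the mean over all its targets differed by -0.50.

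Slc15a3 and Slc15a4, peptide and histidine carriers of lysosomes in immune cells, differed by -0.57 ± 0.30 (adjusted p = 0.389) and 0.39 ± 0.37 (adjusted p = 0.650). Slc19a2, a thiamine carrier chosen after its values were seen, read 8.68, 8.06 and 8.76 in LPS and 9.61, 9.50 and 9.78 in LPS/GalN. Every LPS/GalN array was higher, and the difference of 1.13 ± 0.26 fell short of the threshold (adjusted p = 0.0594).

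**Figure D4:**
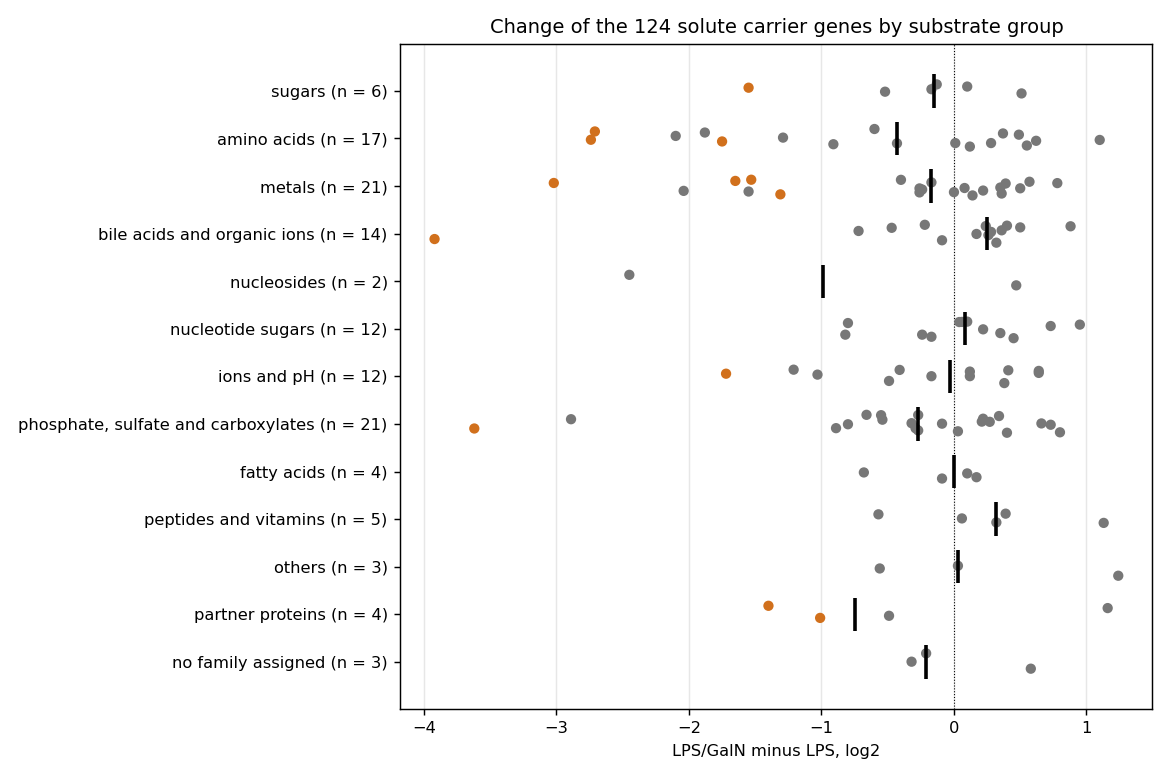
Log2 difference, LPS/GalN minus LPS, of the 124 solute carrier genes by substrate group (n in brackets), each point a gene, orange past the threshold and grey otherwise, with a black line at the group median and vertical jitter only for display. Carriers were placed in substrate groups by SLC family. The orange points all lie to the left of 0, from -3.92 to -1.01, while the medians of the groups with more than 5 genes lie between -0.43 and 0.25.

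Higher calls depended on the fit. With trend and robust fitting over the same features, 10 of the 124 genes (8.06%) were higher, against 2.44% of all features, and 21 (16.9%) were lower, against 4.45%. Of the 122 genes in the deposited value table, 7 (5.74%) were higher, against 4.25% of its 15349 features, and 18 (14.8%) lower, against 9.11%. With only features at a mean log2 of at least 7 in the fit, 10 of the 124 genes (8.06%) were higher, against 5.85% of the features tested, and 19 (15.3%) lower, against 11.5%. Among the higher genes of that fit were Slc19a2 (adjusted p = 0.0163), Slc9a3r2 (0.0225) and Slc44a2 (0.0333).

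LPS replicates 1 and 2 were both at least 1 log2 unit above LPS replicate 3 for 9 of the 124 genes, and 0 of these were among the 13 lower genes. The share of all features with such a gap was not counted. A gap of this size widens the spread within LPS and so works against a call. The 9 were Slc13a2, Slc28a2b, Slc6a8, Slc7a8, Slc39a5, Slc7a7, Slc26a6, Slc27a4 and Slc16a5, chosen by that gap after the values were seen. Leaving out LPS replicates 1 and 2 must therefore raise the difference of each of the 9. Slc28a2b, a relative of the concentrative nucleoside carrier Slc28a2, read 10.89, 9.31 and 7.32 in LPS and 5.78, 6.79 and 7.58 in LPS/GalN, and as the genes are neighbours of similar sequence, its target may also take up Slc28a2 RNA. Its difference was -2.45 over all arrays and -0.60 without LPS replicates 1 and 2. Slc39a5, a zinc importer of epithelia, differed by -1.55 and 0.15, Slc26a6, an anion exchanger, by -1.21 and 0.00, Slc7a7 by -1.29 and -0.52, Slc27a4 by -0.68 and 0.24, and Slc16a5 by 0.73 and 1.75, in the same order. Without LPS replicate 3, which has low intestinal markers, Slc13a2, Slc28a2b, Slc6a8, Slc7a8 and Slc26a6 passed as lower, with adjusted p from 0.00157 for Slc13a2 to 0.0334 for Slc28a2b. The part that the intestinal markers play in these values was not tested.

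**Figure D5:**
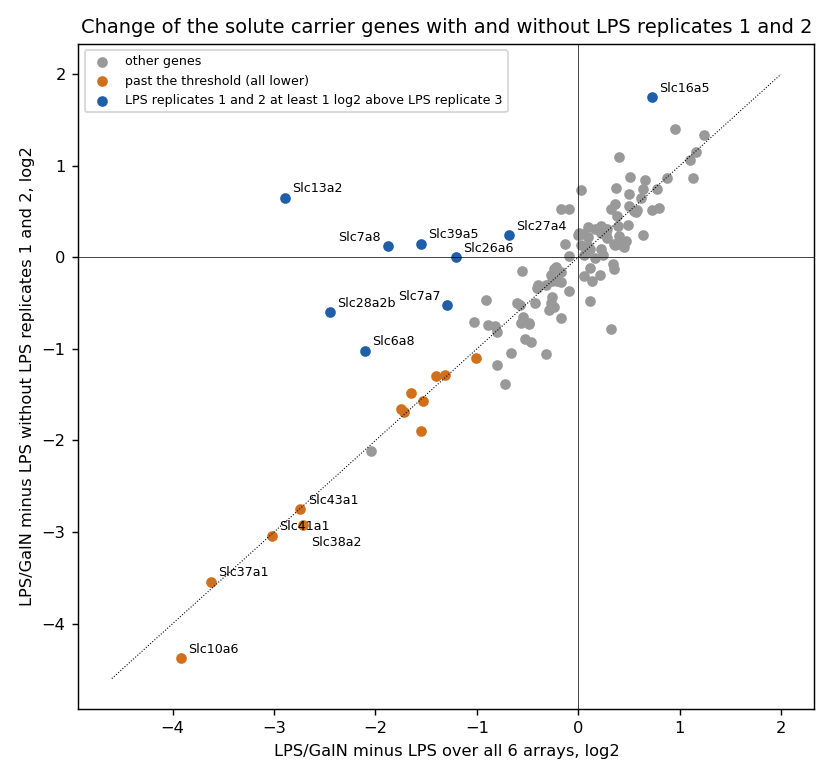
Log2 difference, LPS/GalN minus LPS, of each of the 124 genes over all 6 arrays (horizontal) against the difference without LPS replicates 1 and 2 (vertical), with the dotted line where both are equal. The 13 genes past the threshold (orange) lie near the line. A small spread within LPS favours a call, so their place near the line follows in part from that choice. Slc13a2 moves from -2.89 to 0.65, and the other 8 genes with a gap between LPS arrays (blue) also lie above the line. The blue genes were chosen because LPS replicates 1 and 2 exceed LPS replicate 3, so their place above the line follows from that choice.

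By family, the decreases were scattered. Carriers of 10 of the 39 families were called, SLC30 with 2 genes of 6 and the others with 1 each. The larger families without a call were SLC35 with 12 genes, SLC39 with 9 and a median of 0.00, SLC16 with 8 and a median of 0.06, and SLC7 and SLCO with 5 each and medians of -0.43 and 0.40. The 3 transcripts named only by likeness had a median of -0.21 and 0 past the threshold by limma, with 0 lower and 1 higher at an unadjusted p under 0.05. Below the level threshold Slc35b3 and Slc24a1 were called lower, at -1.46 (adjusted p = 0.0447) and -1.35 (adjusted p = 0.0283).

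Other transporters of liver, and factors that control carriers, were read from lists, and no list was tested against the solute carriers. Of 31 listed ABC transporters, the ATP-driven exporters, 26 were matched and 0 were past the threshold in either direction by limma, with a median difference of 0.09; Abcb11, the bile salt export pump, differed by 0.44 ± 0.21 (adjusted p = 0.328). Of 17 ion pumps and water channels, 16 were matched, also with 0 past the threshold and a median of 0.04. Among 19 factors known to control hepatic carriers, 14 were matched and 2 fell, with a median of -0.52. Nr5a2, a nuclear receptor of bile acid metabolism, fell 4.78-fold (-2.26 ± 0.26, adjusted p = 0.00293), and Nfe2l2, the oxidative stress factor, fell 2.29-fold (-1.19 ± 0.22, adjusted p = 0.0258). Hnf4a, which maintains many hepatocyte genes, differed by 0.09 ± 0.21 (adjusted p = 0.879).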

How the data were processed

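Liver RNA of 6 mice was measured on NimbleGen single-colour arrays, 3 per group. Each array has its own deposited table of linear intensity, made by RMA per the submitters' processing notes. Which RMA settings were used is not given in the sources used here. Rows carry mm9 gene coordinates, not probe positions, so exon or untranslated position was not examined. Per the labels the replicates were separate treatments.

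Intensities were converted to log2, 1 target per gene was kept, and the difference LPS/GalN minus LPS was fitted with limma 3.58.1 (lmFit, then eBayes, two-sided) in R 4.3.3 over all 37539 features, with Benjamini-Hochberg adjustment over all of them and a threshold of 0.05. Prior degrees of freedom were 4.04. Precision is limited by 3 arrays per group. Symbols came from the descriptions and RefSeq names. The fit was tested on simulated data.

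The genes, groups and lists were chosen with earlier results of these data known. Named genes were Slc2a1, Slc10a1 and Slc39a14, every gene past the threshold, and 42 listed liver carriers, of which 32 were among the 124 genes. 1 of these is not reported here. Of the rest, Slc2a9, Slc7a11, Slc1a4, Slc22a5 and Slc28a2 were below the level threshold, and Slc38a4, Slc1a2, Slco1b2, Slc12a2 and Slc46a3 were not matched by description. The text says where any other gene was picked with its values in view. Alternatives covered scaling, background, low levels, target choice, fitting, the replicate block, each array left out and the arrays with other tissue markers left out.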

Additional observations from a re-analysis of the deposited data

How the results depend on the processing

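No gene past the threshold changed sign under any alternative run. In the runs that left arrays out this was fixed, because the groups of these genes do not overlap. The count of lower genes, 13 (3.03% of all features), was 14 with arrays centred on their median (3.23%) and 10 with background subtracted (1.72%). In the deposited value table it was 18 of 122 genes, against 9.11% of all its features. It was 14 with the mean of all targets of a gene (3.08% of all features). It was 19 with only features at a mean log2 of at least 7 (11.5% of those) and 21 with trend and robust fitting (4.45% of all features). It ranged from 9 to 16 with 1 array left out, the 16 without LPS replicate 3, against 1.8% to 3.0% of all features. It was 4 with LPS/GalN replicates 2 and 3 left out (0.661% of all features) and 0 with LPS replicates 1 and 2 left out, where 1 array is left in a group and is assumed to vary like the other group; in the latter fit 0 of all features passed as well. The count of higher genes, 0, was 7 in the deposited value table (4.25% of its features). It was 10 with only features at a mean log2 of at least 7 (5.85%) and 10 with trend and robust fitting (2.44%). With 1 array left out it ranged from 0 to 2. The 2 (Slc44a2 and Slc1a5) came without LPS/GalN replicate 1 and made 1.61% of the genes, against 1.72% of all features. The median difference was -0.098 with a level threshold of 6 (172 genes) and ranged from -0.048 to 0.033 with 1 array left out. With the replicate block the counts stayed 13 lower and 0 higher. In that run Slc39a14 and Slc6a8 passed (adjusted p = 0.0346 and 0.0410) and Slc45a3 and Rsc1a1 did not. Same-numbered arrays did not deviate together (correlations of 0.0025, -0.0031 and 0.0253). These correlations over all features showed no pairing by number, but they cannot settle whether the numbers pair the mice. Dim targets and values near the top of the scale limit what can be seen.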
